A study of Homo sapiens with 6 samples.

Results

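In libraries of K562 cells with and without PCBP1 overexpression (PCBP1 OE), 10 genes of the NF-κB pathway were followed, the subunit genes NFKB1, NFKB2, RELA and RELB, the inhibitor genes NFKBIA, NFKBIE and NFKBIZ, and the feedback genes TNFAIP3, BIRC3 and IER3. They were chosen by name, and their deposited transcripts were summed per gene under GENCODE 44. The 10 genes are part of 62252 genes with a matched transcript, and all 10 passed the filter that left 21045 genes for testing. K562 is a human erythroleukemia cell line. The samples were 3 −Dox and 3 +Dox libraries of K562 cells carrying a Flag-PCBP1 cassette under a tet-inducible promoter, which doxycycline (Dox) switches on. The cassette had been exchanged into a landing pad of a single K562 clone, and the cells selected with puromycin were a polyclonal stable line, so the cassette is present in −Dox too, and +Dox differs from −Dox by the drug itself as well as by Flag-PCBP1. The dose and time of Dox are not given in the sources used here. No label says whether the 3 replicates came from separate cultures, and the p-values measure only the spread between these samples. The libraries held 84177316, 80104627 and 74766040 estimated counts in −Dox and 70905656, 82263502 and 82449808 in +Dox.

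NF-κB is a family of dimeric transcription factors that inhibitors of the IκB group hold inactive in the cytoplasm. Receptors such as those for TNF and IL-1 activate the IκB kinase complex, the inhibitors are degraded, and the dimers enter the nucleus and bind κB sites in promoters and enhancers. Several of the induced genes encode inhibitors of the pathway or survival factors, and NFKB1 and NFKB2 encode the precursors p105 and p100, which themselves hold back dimers until they are processed to p50 and p52.

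PCBP1, the gene that was overexpressed, checks the labels. PCBP1 (ENSG00000169564.7, GRCh38 chromosome 2, 70087477 to 70089203) had 247, 269 and 267 CPM (the count scaled for library size with TMM factors) in −Dox and 1029, 936 and 1037 CPM in +Dox. All +Dox libraries lay above all −Dox libraries. The log2 fold change of PCBP1 was 1.94 ± 0.055 (SE, n = 3 per group), and its adjusted p was 5.22e-10 by edgeR. These counts do not separate the cassette from the cell's own PCBP1, and 73.2% of its exon bases are shared with PCBP1-AS1 on the opposite strand.

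RefSeq promoter windows of GRCh38.p14 (250 bases before to 50 bases after a start site) were matched for 7 of the 10 genes, with 12 windows in all, and were searched on both strands for the κB consensus decamer, counting overlapping matches. The windows of IER3, NFKBIE and RELB were not analysed here. A match was found in 6 of the 7 genes, all but RELA, and in 8 of the 12 windows, against 5.91% of all 35116 windows and 7.09% of all 27305 genes with a window. The same 6 genes hold a match within the 250 bases before a start, as do 6.28% of all genes. A match is a description of the letters and not a measured binding site. Windows of 4 genes are shown, for the 3 genes with a window whose transcripts changed and, beside them, for NFKBIA, whose transcripts did not pass the test. Each reads 5′ to 3′ on the strand of the gene, and the capitals mark the κB matches.
TNFAIP3, chr6:137867009-137867308, plus strand: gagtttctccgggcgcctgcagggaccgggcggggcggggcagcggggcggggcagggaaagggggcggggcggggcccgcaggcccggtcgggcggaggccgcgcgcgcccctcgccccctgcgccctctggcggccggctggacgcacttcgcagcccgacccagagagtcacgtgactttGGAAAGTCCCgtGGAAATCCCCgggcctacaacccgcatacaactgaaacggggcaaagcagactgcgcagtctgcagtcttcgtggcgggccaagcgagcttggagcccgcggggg
BIRC3, chr11:102317234-102317533, plus strand: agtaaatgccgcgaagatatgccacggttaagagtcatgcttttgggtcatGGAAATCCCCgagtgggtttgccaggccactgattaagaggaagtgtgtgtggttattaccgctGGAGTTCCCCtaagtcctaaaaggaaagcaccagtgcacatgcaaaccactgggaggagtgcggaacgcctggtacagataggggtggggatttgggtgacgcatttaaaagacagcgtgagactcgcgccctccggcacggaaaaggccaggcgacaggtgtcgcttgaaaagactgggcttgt
NFKB2, chr10:102394328-102394627, plus strand: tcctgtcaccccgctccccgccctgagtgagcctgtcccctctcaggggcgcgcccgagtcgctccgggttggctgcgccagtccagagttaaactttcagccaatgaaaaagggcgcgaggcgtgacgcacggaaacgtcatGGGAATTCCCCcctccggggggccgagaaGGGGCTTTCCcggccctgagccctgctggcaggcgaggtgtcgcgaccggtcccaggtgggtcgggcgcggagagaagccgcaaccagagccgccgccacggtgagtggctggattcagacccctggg
NFKBIA, chr14:35404700-35404999, minus strand: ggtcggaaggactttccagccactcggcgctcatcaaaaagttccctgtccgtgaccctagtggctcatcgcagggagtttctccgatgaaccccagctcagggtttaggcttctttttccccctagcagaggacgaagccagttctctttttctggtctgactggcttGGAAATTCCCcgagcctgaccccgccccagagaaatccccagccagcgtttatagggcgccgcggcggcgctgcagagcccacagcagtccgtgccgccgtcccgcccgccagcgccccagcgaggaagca
The TNFAIP3 window holds 2 matches that begin 67 and 55 bases before the start, both read from the other strand. The BIRC3 window also holds 2 on the other strand, which begin farther away, 199 and 135 bases before the start. The decamer GGGGATTTCC is found in both genes. NFKB2 has 3 windows, of which that at the first start holds no match and another holds 2. The NFKB2 window shown lies within the gene as GENCODE draws it, at a start downstream of its first, and its 4 matches overlap into 2 stretches that begin 107 and 78 bases before that start. NFKBIA has 1 match, 81 bases before the start.

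On the scale of TPM, which is scaled for transcript length and so allows levels of different genes to be compared, the 10 genes spanned a wide range. These levels rest on the estimated transcripts of each gene. For NFKB2 they include NFKB2-219, a short retained-intron transcript given below, whose share was larger in TPM than in estimated counts. In −Dox, RELA, the main transactivating subunit, had 16.8 ± 1.53 TPM and the feedback gene IER3 had 16.4 ± 0.959 TPM (SD, n = 3). The libraries of these 2 genes overlapped. NFKBIA followed with 9.82 ± 0.794 TPM, NFKB2 with 6.47 ± 0.652 TPM, NFKB1 with 4.99 ± 0.326 TPM, NFKBIE with 4.89 ± 0.311 TPM and NFKBIZ with 3.23 ± 0.648 TPM. Of these neighbours, NFKB1 and NFKBIE overlapped. The lowest levels were those of TNFAIP3 (1.53 ± 0.123 TPM), BIRC3 (0.513 ± 0.063 TPM) and RELB (0.375 ± 0.134 TPM), and the libraries of BIRC3 and RELB overlapped.

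In +Dox the order differed at several places. RELA stood alone at the top with 16.2 ± 0.491 TPM, and IER3, at 9.65 ± 0.288 TPM, no longer overlapped it. NFKBIA had 8.40 ± 0.349 TPM, NFKBIE 4.54 ± 0.701 TPM, NFKB1 4.46 ± 0.423 TPM, NFKB2 4.15 ± 0.665 TPM and NFKBIZ 2.74 ± 0.621 TPM. Within this run, NFKBIE overlapped NFKB1 and NFKB1 overlapped NFKB2. BIRC3, at 0.905 ± 0.046 TPM, was now above TNFAIP3, at 0.765 ± 0.060 TPM, and RELB was last with 0.451 ± 0.154 TPM. Summed by role with no test, the 4 subunit genes had 28.7 ± 0.729 TPM in −Dox and 25.3 ± 1.59 TPM in +Dox. The 3 inhibitor genes had 17.9 ± 0.957 and 15.7 ± 0.715 TPM, and the 3 feedback genes 18.5 ± 0.833 and 11.3 ± 0.390 TPM. Most of the feedback sum was IER3 in both groups, and BIRC3 within it was higher in +Dox.

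**Figure D1:**
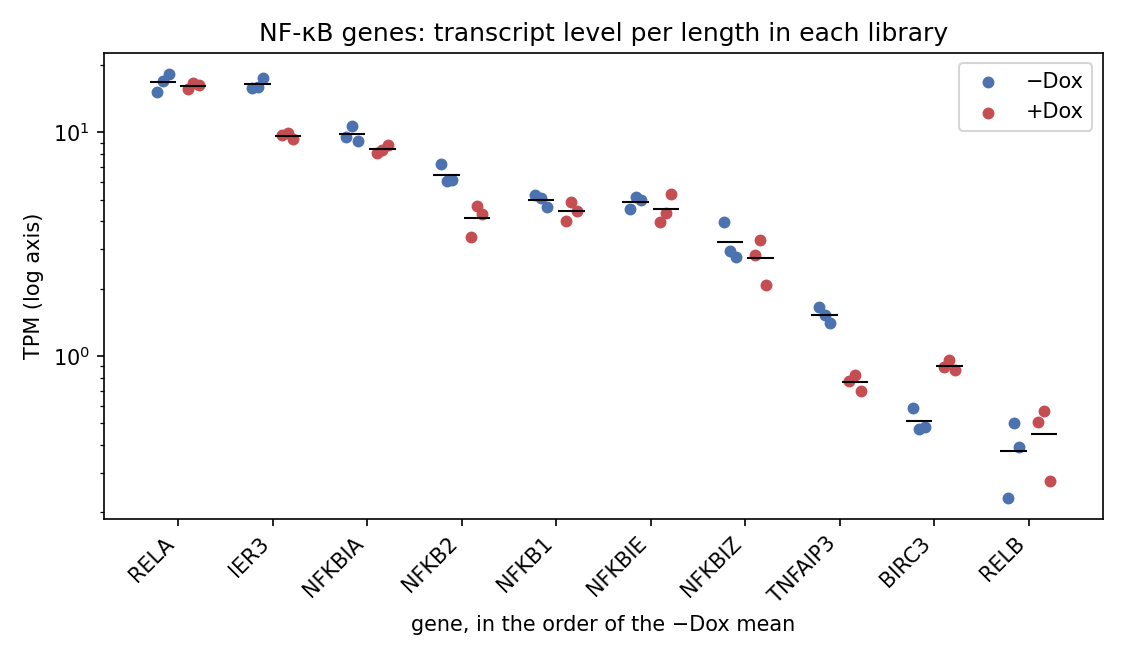
TPM (log axis) of the 10 NF-κB genes in each of 3 −Dox and 3 +Dox libraries, in the order of the −Dox mean; points are libraries and short lines are group means. IER3 lies beside RELA in −Dox and below it in +Dox, and TNFAIP3 and BIRC3 change places.

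Between the groups, 4 of the 10 genes changed at an adjusted p under 0.05 by edgeR: BIRC3 rose, and IER3, TNFAIP3 and NFKB2 fell. All 3 feedback genes were among them, 1 of the 4 subunit genes, and none of the 3 inhibitor genes. Across all 21045 genes tested, 15.8% were called, 8.16% higher and 7.68% lower. No member was a DEG, which also needs an absolute log2 fold change above 1, as 1.46% of all genes were. The CPM of the 3 −Dox libraries did not overlap that of the 3 +Dox libraries in 5 of the 10 genes, against 33.2% of all genes. The median log2 fold change was −0.14 over the 10 genes and 0.01 over all genes tested. In bulk RNA, fewer cells expressing a gene and less RNA per cell cannot be told apart.

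**Figure D2:**
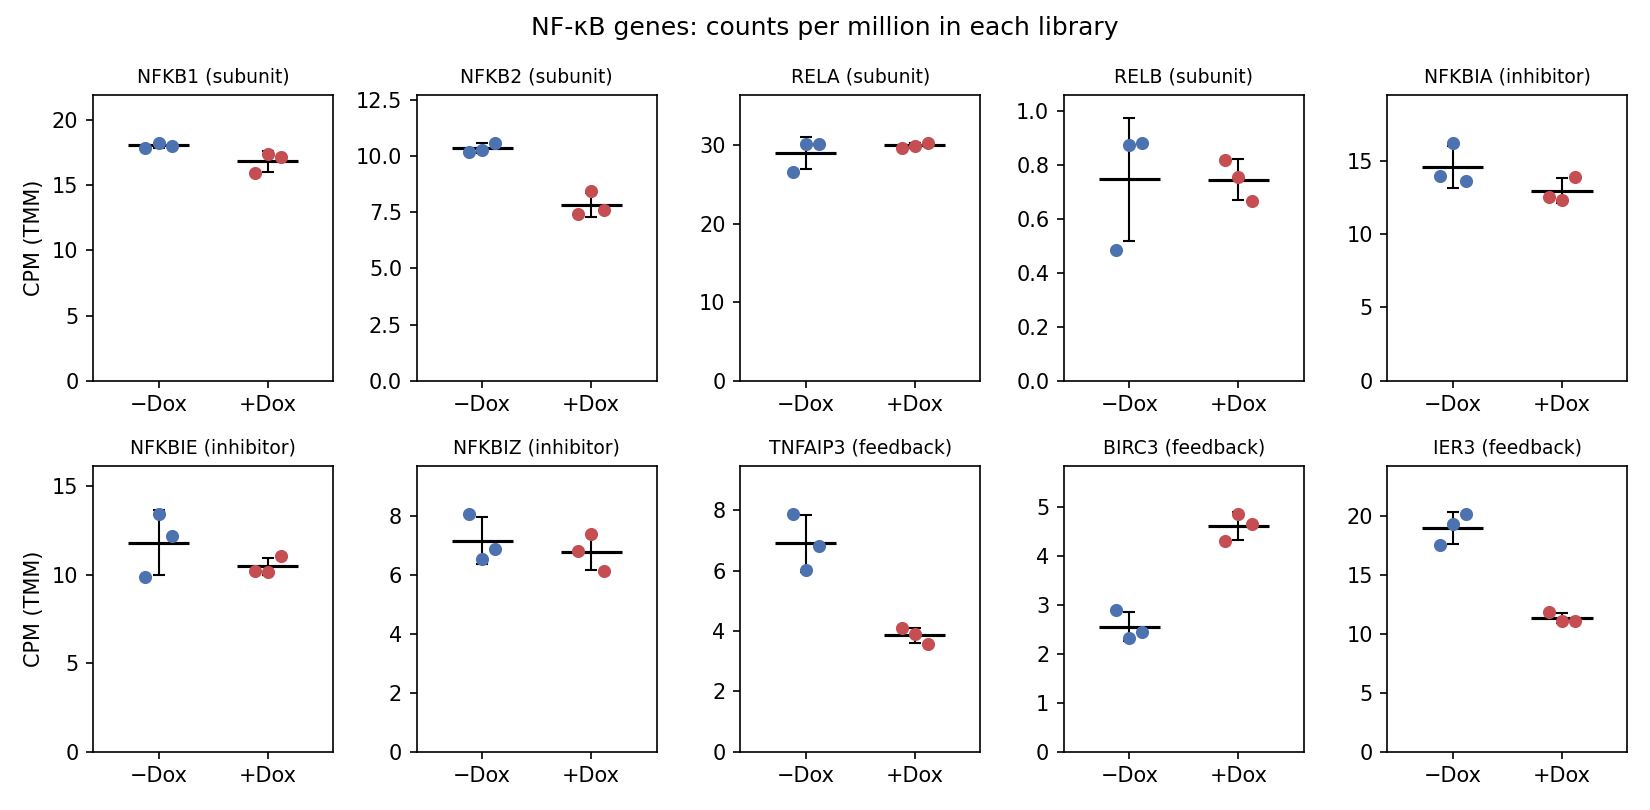
CPM (TMM scaled) of each of the 10 genes in the 3 −Dox (blue) and 3 +Dox (red) libraries; points are libraries, horizontal lines are means and error bars are SD, and each axis starts at 0. The points of the groups stand apart for NFKB1, NFKB2, TNFAIP3, BIRC3 and IER3.

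Among the subunit genes, NFKB2 fell. NFKB2 (ENSG00000077150.21, GRCh38 chromosome 10, 102394110 to 102402524, plus strand), which encodes the p100 precursor of p52, had 10.2, 10.3 and 10.6 CPM in −Dox and 7.42, 8.44 and 7.61 CPM in +Dox. The −Dox libraries lay close together and all 3 +Dox libraries were below them. NFKB2 was 1.32-fold lower in +Dox, with a log2 fold change of −0.40 ± 0.086 (SE) and an adjusted p of 0.00675 by edgeR. Under a length offset in edgeR or DESeq2, the log2 fold change was −0.61.

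NFKB1 (ENSG00000109320.14, GRCh38 chromosome 4, 102501330 to 102617302), which encodes the p105 precursor of p50, had 17.9, 18.3 and 18.0 CPM in −Dox and 15.9, 17.4 and 17.2 CPM in +Dox. The groups did not overlap, but the gap was small beside the spread of +Dox. Its log2 fold change was −0.10 ± 0.065 and did not pass the test (edgeR adjusted p = 0.346, 95% interval −0.24 to 0.04). RELA (ENSG00000173039.20, GRCh38 chromosome 11, 65653599 to 65663090) had 26.6, 30.1 and 30.2 CPM in −Dox and 29.7, 30.0 and 30.3 CPM in +Dox. Here −Dox replicate 1 was the lowest library and the other 5 lay within a narrow range, so the groups overlapped. The log2 fold change of RELA was 0.05 (95% interval −0.08 to 0.18, edgeR adjusted p = 0.662). RELB (ENSG00000104856.15, GRCh38 chromosome 19, 45001461 to 45038192), the partner of p52 in the non-canonical branch, had few reads, with 41, 68 and 66 estimated counts in −Dox and 58, 64 and 54 in +Dox. Its log2 fold change was 0.00 with a 95% interval from −0.66 to 0.66 (edgeR adjusted p = 0.999). In −Dox, replicate 1 had 0.484 CPM and stood below the other 2 libraries, which had 0.873 and 0.883 CPM.

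The 3 inhibitor genes had negative log2 fold changes that did not pass the test. NFKBIA (ENSG00000100906.12, GRCh38 chromosome 14, 35401079 to 35404749, minus strand), which encodes IκBα, had 13.9, 16.2 and 13.6 CPM in −Dox and 12.6, 12.4 and 13.9 CPM in +Dox. The highest +Dox library was above the lowest −Dox library. The log2 fold change of NFKBIA was −0.17 ± 0.086 (95% interval −0.36 to 0.01, edgeR adjusted p = 0.210). NFKBIE (ENSG00000146232.17, GRCh38 chromosome 6, 44258166 to 44265788), the gene of IκBε, had 9.86, 13.4 and 12.2 CPM in −Dox and 10.2, 10.2 and 11.1 CPM in +Dox. Among the −Dox libraries, replicate 1 was below all +Dox libraries and the other 2 were above them. Its log2 fold change was −0.17 ± 0.105 (edgeR adjusted p = 0.314), and without −Dox replicate 1 it was −0.29 with an adjusted p of 0.038. NFKBIZ (ENSG00000144802.11, GRCh38 chromosome 3, 101827991 to 101861022), whose nuclear protein IκBζ also acts as a coactivator, had 8.07, 6.54 and 6.86 CPM in −Dox and 6.82, 7.38 and 6.13 CPM in +Dox. The libraries of the groups were mixed, and the log2 fold change was −0.08 ± 0.112 (edgeR adjusted p = 0.706).

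The feedback genes showed the widest changes of the 10 genes, in both directions. IER3 (ENSG00000137331.12, GRCh38 chromosome 6, 30743199 to 30744548, minus strand), an early response gene linked to cell survival, had 17.5, 19.3 and 20.2 CPM in −Dox and 11.8, 11.1 and 11.1 CPM in +Dox. All +Dox libraries were below all −Dox libraries by more than the spread within either group. IER3 was 1.67-fold lower in +Dox, with a log2 fold change of −0.74 ± 0.075 (SE) and the smallest adjusted p of the 10 genes, 3.77e-05 by edgeR. IER3-AS1 on the other strand covers 32.6% of the exon bases of IER3, and the strand setting of the counting is not given in the sources used here. The mean of IER3-AS1 itself was 1.40 CPM in −Dox against 1.33 CPM in +Dox, with a log2 fold change of −0.08 (edgeR adjusted p = 0.880).

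TNFAIP3 (ENSG00000118503.18, GRCh38 chromosome 6, 137867214 to 137883314, plus strand) encodes A20, a ubiquitin-editing enzyme that dampens signalling from the TNF and IL-1 receptors. It had 7.88, 6.01 and 6.82 CPM in −Dox and 4.09, 3.91 and 3.57 CPM in +Dox. The −Dox libraries were spread more widely, yet the lowest of them was well above the highest +Dox library. TNFAIP3 was 1.79-fold lower, with a log2 fold change of −0.84 ± 0.124 (SE, 95% interval −1.11 to −0.57) and an adjusted p of 0.000647 by edgeR. WAKMAR2, which covers 1.47% of its exon bases on the other strand, had 2.98 CPM in −Dox and 3.56 CPM in +Dox, a difference that did not pass the test (edgeR adjusted p = 0.270).

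BIRC3 moved the other way. BIRC3 (ENSG00000023445.17, GRCh38 chromosome 11, 102317484 to 102339403, plus strand) encodes cIAP2, a ubiquitin ligase recruited to TNF receptors that inhibits cell death. It had 2.91, 2.34 and 2.45 CPM in −Dox and 4.31, 4.87 and 4.67 CPM in +Dox, from 182 to 412 estimated counts per library. All +Dox libraries lay above all −Dox libraries. BIRC3 was 1.80-fold higher in +Dox, with a log2 fold change of 0.85 ± 0.138 (SE, 95% interval 0.55 to 1.15) and an adjusted p of 0.00124 by edgeR. Its neighbour on the chromosome, BIRC2, which encodes the related ligase cIAP1, was also higher, from 66.5 to 77.6 CPM, with a smaller log2 fold change of 0.22 (edgeR adjusted p = 0.0113). Without −Dox replicate 3 or +Dox replicate 3 the adjusted p of BIRC2 was 0.052 and 0.056.

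**Figure D3:**
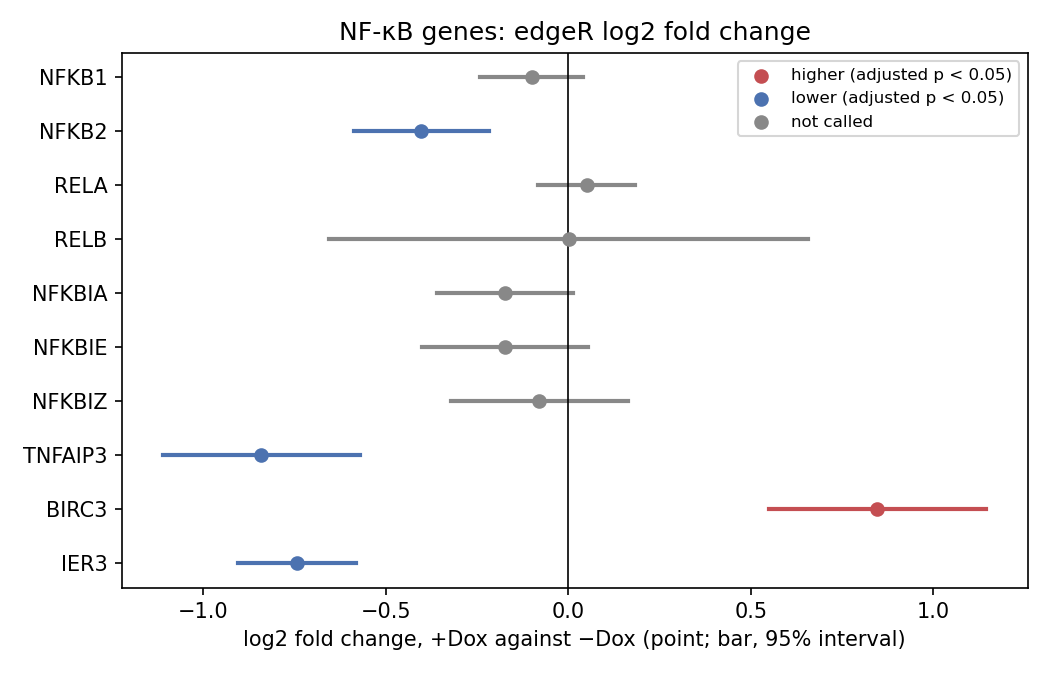
The edgeR log2 fold change of each of the 10 genes in +Dox against −Dox (points) with its 95% interval (bars), red for higher, blue for lower and grey for not called. BIRC3 lies at 0.85 and IER3 and TNFAIP3 at −0.74 and −0.84, while the intervals of 6 genes include 0.

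The rest of the pathway was read from 5 lists, which were chosen with earlier results of these data known, and of which 81 of 93 genes were tested. In these lists 5 genes were higher, 19 were lower and 57 were not called, with a median log2 fold change of −0.07. Over all 21045 genes tested, 8.16% were higher and 7.68% lower. Of the 4 other Rel and IκB genes, only NFKBIB, the gene of IκBβ, was called. It fell from 19.4 ± 2.32 to 14.4 ± 0.703 CPM (SD, n = 3), with a log2 fold change of −0.43 and an adjusted p of 0.0048 by edgeR. REL, the gene of the subunit c-Rel, had 42.7 CPM in −Dox, 42.4 CPM in +Dox and a log2 fold change of −0.01, BCL3 −0.11 and NFKBID −0.23, and none of these passed the test.

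Of the 6 IκB kinase genes, CHUK, which encodes IKKα, was lower by edgeR, with a log2 fold change of −0.17 (78.0 to 69.5 CPM, adjusted p = 0.0449). That call held in 5 of the 14 alternative settings, and leaving out any 1 library gave an adjusted p of 0.066 to 0.164. With length offsets the log2 fold change of CHUK was −0.056 by edgeR and −0.061 by DESeq2. The log2 fold changes of the other kinase genes were −0.16 for IKBKB (IKKβ), −0.11 for IKBKG (NEMO, the regulatory subunit), −0.05 for MAP3K14 (NIK, the kinase of the non-canonical branch), −0.13 for IKBKE and 0.11 for TBK1. None of these 5 passed the test, and the median of the 6 was −0.12. IKBKB was called lower in 3 of the 14 alternatives, with an adjusted p of 0.0213 by DESeq2.

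Of 28 receptor and adaptor genes listed, 26 were tested, 4 were lower and 1 was higher, with a median of −0.02. Calls in either direction were thus near the 15.8% of all genes tested, and no change of the list as a whole is read from them. TNFRSF1A, which encodes TNF receptor 1, had 24.9, 23.3 and 28.7 CPM in −Dox and 16.1, 15.7 and 15.8 CPM in +Dox. The +Dox libraries were nearly equal and far below −Dox, with a log2 fold change of −0.69 ± 0.077 and an adjusted p of 7.89e-05 by edgeR. TNFRSF1B, the gene of the other TNF receptor, named after its values were seen, was not called, with 35.9 CPM in −Dox, 35.6 CPM in +Dox and a log2 fold change of −0.01. TNFRSF10B, a receptor for TRAIL, fell with a log2 fold change of −0.43, TNFRSF12A, the TWEAK receptor, with −0.48, and IL1RAP, the accessory chain of the IL-1 receptor, with −0.68. Without −Dox replicate 3 or +Dox replicate 1 the adjusted p of TNFRSF12A was 0.055 and 0.052, and IL1RAP had a log2 fold change of −0.37 and an adjusted p of 0.201 by edgeR with a length offset. IRAK4, a kinase downstream of the IL-1 receptor, rose from 49.4 to 60.8 CPM (log2 fold change 0.30, edgeR adjusted p = 0.0019).

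The 18 genes of ubiquitin ligases, deubiquitinases and their partners were all tested, and 3 were higher and 1 lower, with a median of 0.06. For all genes tested the shares were 8.16% higher and 7.68% lower. RNF11, a partner of A20, had a log2 fold change of 0.31 (edgeR adjusted p = 0.0092, and 0.113 with a length offset), and BIRC2 is given above. UBE2V1 and UBE2N, whose proteins form the enzyme that builds K63-linked chains, had log2 fold changes of 0.15 and −0.18. Both were close to the threshold, with adjusted p of 0.0423 and 0.0318 by edgeR, and the calls held in 3 and 9 of the 14 alternatives. Leaving out any 1 library gave UBE2V1 an adjusted p of 0.058 to 0.163, and for UBE2N 4 of the 6 omissions gave 0.071 to 0.128.

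Of 37 other induced target genes, 27 were tested, with 12 lower and 1 higher and a median log2 fold change of −0.25. Among all genes tested, 7.68% were lower and 8.16% higher. The 3 DEGs of the pathway lists, IL6, CXCL8 and CXCL2, were here. IL6 had 3.77, 3.58 and 2.93 CPM in −Dox and 0.747, 0.697 and 0.788 CPM in +Dox (log2 fold change −2.20). CXCL8 was spread widely in −Dox, with 2.66, 3.88 and 5.90 CPM, and had 0.944, 0.922 and 0.985 CPM in +Dox (−2.12). CXCL2 had 1.81, 2.17 and 2.74 CPM in −Dox and 0.972, 0.946 and 0.923 CPM in +Dox (−1.24). CXCL3, a neutrophil chemokine, had 2.92, 3.61 and 4.01 CPM in −Dox and 1.83, 1.82 and 1.96 CPM in +Dox, a log2 fold change of −0.91 (edgeR adjusted p = 0.00232). PLAU, which encodes urokinase, had 3.07, 3.48 and 3.53 CPM in −Dox and 1.85, 1.80 and 1.80 CPM in +Dox, a log2 fold change of −0.89 (edgeR adjusted p = 0.00152). In both genes the +Dox libraries were close to each other and below all of −Dox. Among more abundant targets, CFLAR, which encodes the cell death inhibitor c-FLIP, fell from 111 to 86.2 CPM (−0.36), TNFAIP8 from 63.2 to 49.4 CPM (−0.35) and the activation antigen gene CD69 from 56.4 to 40.2 CPM (−0.49). The 1 higher target, FTH1, which encodes ferritin heavy chain and is named because it was the only one, had a log2 fold change of 0.27 (edgeR adjusted p = 0.0143, and 0.062 without +Dox replicate 1). Of the 32 target genes with a promoter window, 14 held a κB match. Of these, IL6, CXCL2, CXCL3 and CFLAR were called lower. CXCL1, PTX3, IRF1, CD83 and LTB, also with a match, were not called, and VCAM1, SELE, CCL20, CXCL10 and LTA were not tested. The windows of CXCL8, PLAU, TNFAIP8, ICAM1, BCL2L1, SOD2 and PTGS2, which were all called lower, held no match.

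**Figure D4:**
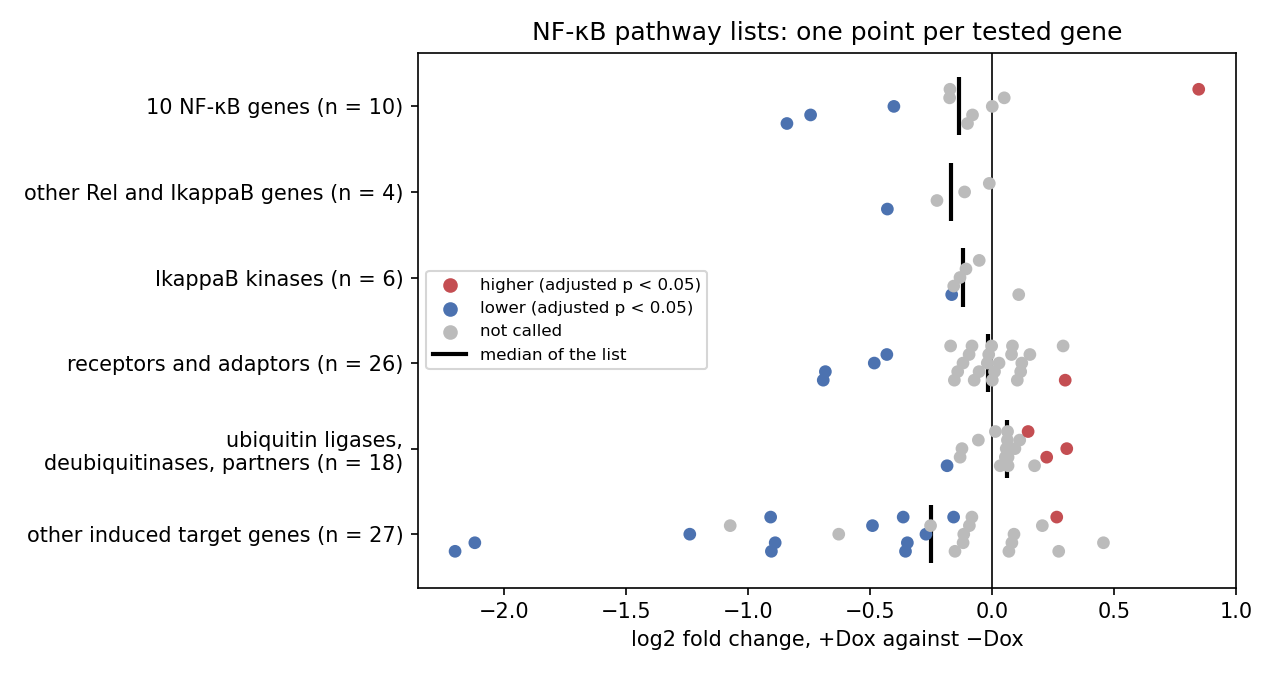
The log2 fold change, +Dox against −Dox, of every tested gene of the 10 NF-κB genes and of 5 pathway lists, 1 point per gene, red for higher, blue for lower and grey for not called; thick lines are list medians. The other induced target genes have the lowest median, −0.25, and 12 of 27 were called lower.

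The genes most like IER3 over the 6 libraries were found among 14330 genes with at least 1 CPM, by the Pearson correlation of log2 CPM. Among the closest were PLAU (r = 0.998), C8orf33 (0.998), RDH10 (0.997) and SIRT7 (0.997). These 4 genes were lower in +Dox, with log2 fold changes of −0.89, −0.23, −0.91 and −0.27. SIRT7 was not called with length offsets, where its adjusted p was 0.286 by edgeR and 0.188 by DESeq2. IER3 itself differed between the groups, so a high r can come from a difference between the groups alone, and the values are given with no test.

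The 10 genes have 131 annotated transcripts, of which 53 had a mean of at least 10 estimated counts. In 6 of the 53 (3 in RELA, 2 in NFKBIA and 1 in NFKB1) the share of the gene's TPM did not overlap between the groups. Over all 81152 such transcripts of genes with 2 or more transcripts, 12.7% did not overlap, so the 6 are near the background and no change of a transcript is read from them. By shares of estimated counts, 8 of the 53 did not overlap, against 13% of all such transcripts. With 3 against 3 libraries the smallest p an exact permutation test can give is 0.1, and the shares were not tested.

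For the genes that changed, the shares gave no clear division. IER3-201 held 71.9% ± 1.29 of IER3 in −Dox and 72.9% ± 5.95 in +Dox, and BIRC3-202 held 90.4% ± 10.6 and 86.5% ± 4.60 of BIRC3 (SD, n = 3). TNFAIP3-201 held 55.4%, 39.9% and 59.1% of TNFAIP3 in −Dox, and in +Dox it was listed at 0 in replicates 1 and 2 and at 65.8% in replicate 3. The transcripts of TNFAIP3 traded places between replicates of 1 group, with an SD of up to 40.1 percentage points, and no share of them is read here as a change. NFKB2-219, a short retained-intron transcript, held 20.0%, 20.6% and 13.9% of NFKB2 in −Dox and 14.2%, 6.83% and 4.13% in +Dox, and the groups overlapped. Of the estimated counts of NFKB2, which are not scaled for length, it held 4.34%, 4.60% and 2.73% in −Dox and 2.31%, 1.19% and 0.797% in +Dox, and these shares did not overlap.

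**Figure D5:**
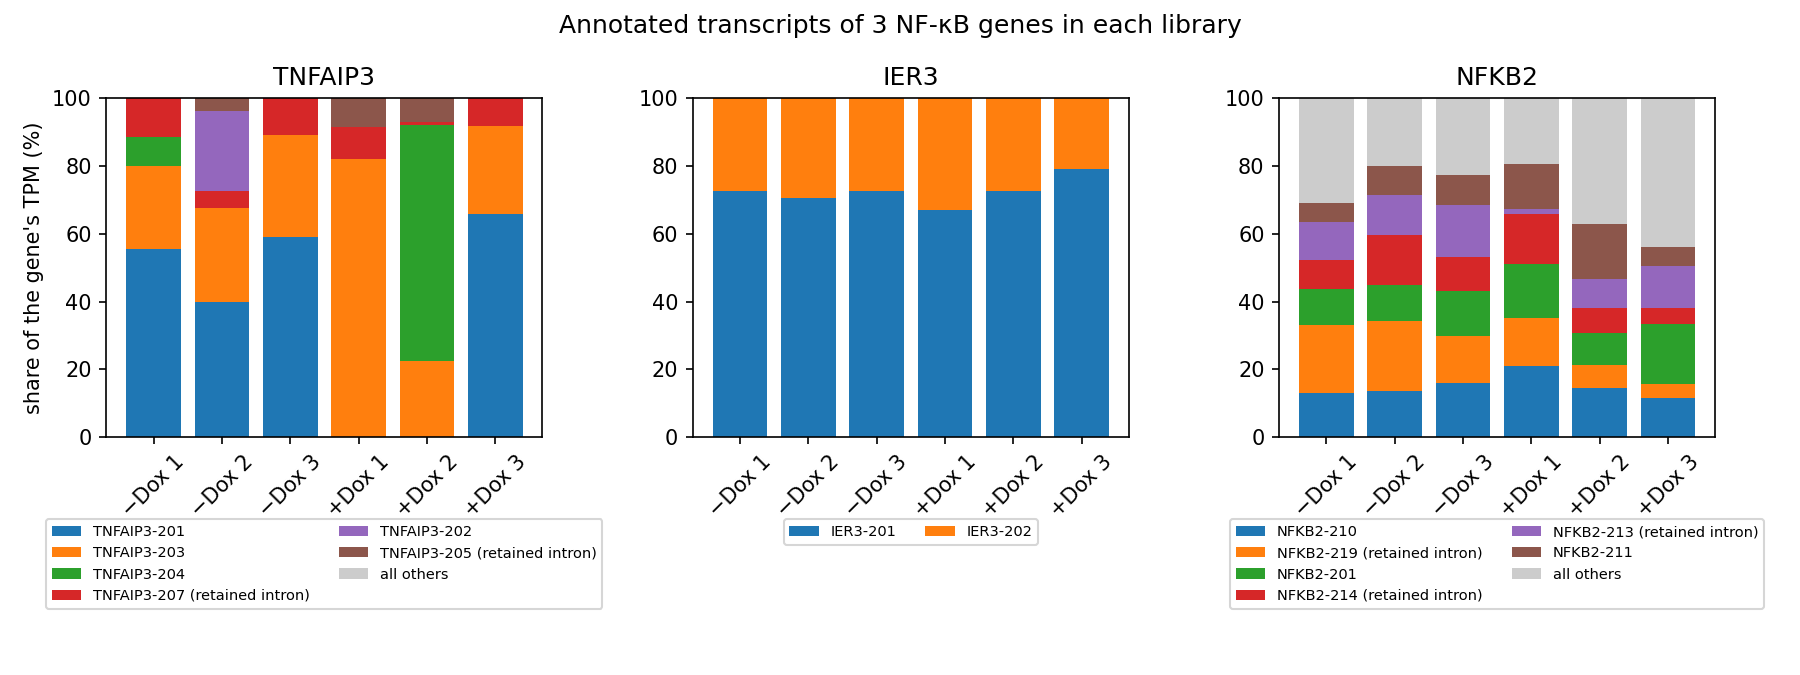
Share of the gene's TPM (%) on each annotated transcript of TNFAIP3, IER3 and NFKB2 in each library, as stacked bars of the 6 transcripts with the largest mean share. The 2 IER3 transcripts keep a similar division in all libraries, while those of TNFAIP3 differ between replicates of +Dox.

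Markers of the labelled cell line were present. All 12 K562 markers were tested, and their summed level was 9232 CPM in −Dox and 9032 CPM in +Dox, with HBG2, a fetal globin gene, the most abundant. Within that list EPOR rose with a log2 fold change of 0.97, KLF1 with 0.46 and TAL1 with 0.44, and HBZ, TFRC and LMO2 fell with −0.40, −0.34 and −0.20. LMO2 was not called in 5 of the 14 alternatives, with an adjusted p of 0.0599 to 0.0995 without −Dox replicate 2 or 3 or +Dox replicate 2 or 3. Of 9 markers of monocytes and macrophages, in which many NF-κB targets are expressed, 4 were tested, and CD14, CSF1R, CD163, S100A8 and S100A9 were below the filter of a mean count above 10. Their sum was 137, 160 and 189 CPM in −Dox and 115, 116 and 132 CPM in +Dox, lower in +Dox as IER3 and TNFAIP3 were, and nearly all of it was LYZ, the lysozyme gene. LYZ fell with a log2 fold change of −0.47 (edgeR adjusted p = 0.00837), and without it the sum was 19.2 CPM in −Dox and 16.6 CPM in +Dox. The part of these markers in the changes of the 10 genes was not tested. Of the T cell markers 2 of 7 were tested and CD8A was at 0, of the B cell markers 2 of 5 were tested and MS4A1 and PAX5 were at 0, and of the fibroblast, endothelial and epithelial markers 5 of 10 were tested, with KRT18 the most abundant. None of these markers was called.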

How the data were processed

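Messenger RNA was sequenced as paired-end reads of 150 cycles. The authors quantified each library with Salmon 1.10.2 and deposited an unscaled estimated count and a TPM value, scaled for effective length and library, for 252045 transcripts. The deposited transcript lengths served as length offsets. Salmon's index, strand and bias settings are not given in the sources used here, and replicates were not pooled.

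Transcripts were matched to GENCODE 44 on GRCh38 without regard to version (251612 matched, 433 did not and held 0.125% to 0.138% of each library), and estimated counts were summed per gene and rounded. The test was edgeR 4.0.16 on genes whose mean count exceeded 10 (glmQLFit, glmQLFTest, TMM, two-sided, Benjamini-Hochberg over 21045 genes) in R 4.3.3. The SE is the log2 fold change over the root of the F statistic. The 14 alternatives were DESeq2 1.42.0, DESeq2 with length offsets and a summed count above 10, edgeR with length offsets, RLE factors, 3 other count filters, the replicate number as a block and each library left out. The edgeR and DESeq2 fits without length offsets were tested on simulated counts with the same dispersion for every gene. The other steps were not simulated.

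The members and lists were chosen with earlier results of these data known. Named are PCBP1, the 10 genes, all other Rel, IκB and IκB kinase genes, the 5 receptor or adaptor genes, 5 ubiquitin genes and 8 targets with the smallest p, the 5 genes most like the member with the smallest p and genes overlapping a member. USP21, HCG20, RELA-DT and NXPE3, which this rule also names, were not called by edgeR on all 6 libraries. FTH1, TNFRSF1B, the marker genes named and the targets named only for their promoter windows are outside the rule. They were picked with their values known. Not every gene under these rules is reported here. Sequences are from RefSeq. Python 3.11.15, numpy 2.4.6, pandas 2.3.3, scipy 1.17.1 and matplotlib 3.10.9 were used.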

Additional observations from a re-analysis of the deposited data

How the results depend on the processing

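The calls of PCBP1, NFKB2, TNFAIP3, BIRC3 and IER3 held in all 14 alternatives, with log2 fold changes of −0.61 to −0.37 for NFKB2, −0.98 to −0.74 for TNFAIP3, 0.78 to 0.95 for BIRC3 and −0.80 to −0.70 for IER3. With 1 library left out, 1 member was higher and 3 to 4 were lower, the fourth being NFKBIE without −Dox replicate 1. With an edgeR length offset, 913 genes were higher and 969 lower, and with genes of any count 515 were DEGs. Left-out libraries gave 1163 to 1616 genes higher, 1067 to 1697 lower and 231 to 313 DEGs. The lower count was 1067 without −Dox replicate 2. Of the pathway lists 3 genes were higher with the edgeR length offset, 6 with DESeq2, 6 with DESeq2 with a length offset and a summed count above 10, and 3 to 4 with a library left out, with 14 to 18 lower. SIRT7, among the genes most like IER3, had an adjusted p of 0.286 with the edgeR length offset. Calls were gained by IKBKB with DESeq2 (adjusted p 0.0213), RLE factors (0.0413) and 10 or more counts in each library (0.0386), by USP21 with DESeq2 (0.0475), by RELA-DT with DESeq2 (0.0497) and its length offset (0.0449), and by NXPE3 without −Dox replicate 1 (0.0339). The causes were not tested.

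Reversals of sign were confined to genes that did not pass the test. RELA had −0.025 with the DESeq2 length offset and that count filter, −0.020 with the offset in edgeR and −0.010 to 0.081 with a library left out. RELB had −0.0070 with DESeq2, −0.0074 with RLE factors, −0.0066 with a summed count above 10, −0.0034 with any count, −0.0044 with 10 or more counts demanded of each library and −0.24 to 0.14 with a library left out. The other reversals came with a library left out, where the ranges were −0.15 to 0.014 for NFKBIZ, −0.11 to 0.080 for REL, −0.32 to 0.11 for BCL3, −0.11 to 0.0069 for MAP3K14, −0.31 to 0.11 for HCG20 and −0.28 to 0.13 for IER3-AS1.

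Deviations of same-numbered libraries from their group means had correlations of 0.0003, −0.206 and −0.022, and no library correlated best with its own number. The numbers were thus not taken as pairs. With the replicate number as a block, 1329 genes were higher and 1161 lower, 298 were DEGs, and 1 member was higher and 3 lower. Of the lists 4 genes were higher and 15 lower, and CHUK, UBE2N and UBE2V1 were not called. RELB had 41 to 68 counts per library and an SE of 0.304, and how much of its interval depth sets was not tested.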
